A study of Mus musculus with 27 samples.

Results

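Messenger RNA and other RNA of mouse cortex on the side of a stroke, 12 h after blood flow was restored, was compared with that of sham-operated mice, gene by gene. The comparison rests on 6 of the 27 libraries of the series, 3 from ipsilateral cortex at 12 h and 3 from sham cortex, and every gene of the count table was entered. All animals were wildtype C57BL6 mice 7 to 8 weeks old. In the stroke group the right middle cerebral artery was blocked by a suture for 35 min, with the common carotid artery tied, and the suture was then withdrawn. Sham mice were anaesthetised and had their arteries exposed, but received no filament, so anaesthesia and neck surgery are common to every group. The hemisphere of the sham tissue, the time between sham surgery and dissection, and the sex of the animals were not stated in the descriptions used here. Each library is bulk cortex, so injured and spared tissue and all cell types were mixed. Replicates 1, 2 and 3 are animals operated on separate days. Contralateral cortex at 12 h and ipsilateral cortex at 6 h and 24 h, with 3 libraries each, are used only to show where ipsilateral cortex at 12 h differs from them.

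Closing a brain artery deprives cells of oxygen and glucose, and reopening it adds oxidative damage. Unfolded proteins release heat shock factors, which switch on chaperone genes, and stress kinases slow translation in a way that favours the factor ATF4 and its targets. Microglia and astrocytes release cytokines and chemokines that recruit white blood cells, while injured neurons lose synaptic function or die.

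The sham libraries held 43616527, 42291845 and 34226854 counts assigned to genes, and the ipsilateral libraries 47918213, 38725181 and 43523523. Between 18866 and 19071 genes had a count in sham libraries and between 19121 and 19867 in ipsilateral libraries. Mitochondrial transcripts took 26.02% to 28.31% of counts in sham and 29.05%, 27.16% and 34.89% in ipsilateral replicates 1, 2 and 3. On the first principal component of the sham and both 12 h groups, with 35% of the variance, sham libraries lay between -20.5 and -18.8, and ipsilateral replicates 1, 2 and 3 at 47.4, 19.3 and 63.6. Ipsilateral replicate 2 therefore stood nearest to sham. Slc17a7, the vesicular glutamate transporter that marks cortical excitatory neurons, was abundant in every library, at 942, 877 and 985 CPM in sham (counts scaled to library size) and 587, 731 and 735 CPM in ipsilateral replicates 1, 2 and 3.

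At 12 h, 1864 of 18087 tested genes differed between ipsilateral cortex and sham. Of these 1191 rose, 6.58% of the genes tested, and 673 fell, 3.72% (edgeR quasi-likelihood test, Benjamini-Hochberg adjusted p under 0.05, which holds for all adjusted p values here). Rises were larger than falls: 439 genes rose and 38 fell by at least 2-fold. The median log2 fold change was 0.78 among genes that rose and -0.502 among genes that fell, against -8.98e-05 over all genes. For 22 of the genes that rose sham held no count. With these set at a floor of 3 counts over the sham group the median was again 0.78, though so few genes could move it little. Without regard to the test, all 3 ipsilateral libraries lay above all 3 sham libraries in 3060 genes (16.9%) and below them in 3124 (17.3%). The genes that rose had a median log2 difference from the sham mean of 0.906, 0.55 and 0.806 in ipsilateral replicates 1, 2 and 3, so replicate 2 showed the smallest rise. The counts moved with the animals included, and here and below a loss is a call that failed when the stated library was left out, with its adjusted p in parentheses. Without sham replicate 1, 2 or 3, 742, 702 and 694 genes rose and 306, 346 and 334 fell. Without ipsilateral replicate 1, 2 or 3, 587, 1333 and 769 rose and 173, 627 and 318 fell.

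**Figure D1:**
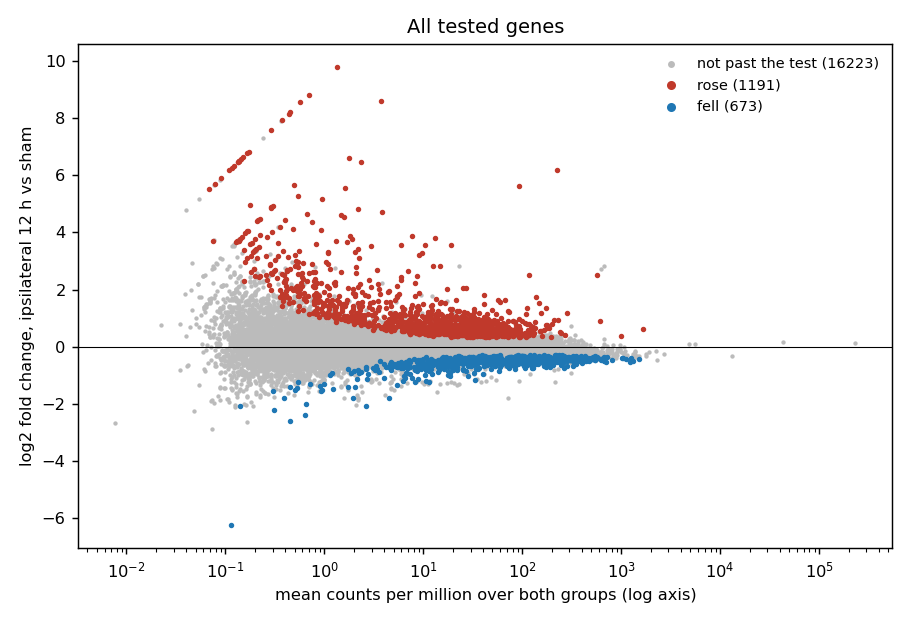
Log2 fold change between ipsilateral cortex at 12 h and sham (vertical axis) against mean CPM over both groups (horizontal axis, log scale), 1 point per tested gene. Red points rose (1191), blue points fell (673) and grey points did not pass the test; the rises reach much larger fold changes than the falls.

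The 14 largest rises among genes with a mean of at least 5 CPM in stroke cortex and no overlap between groups were chaperones, stress genes and inflammatory genes, with a few others. Hspa1b, the inducible chaperone HSP70 (mm10 chr17:34956436-34959238, minus strand), read 6.44, 7.67 and 4.14 CPM in sham and 549, 277 and 499 CPM in ipsilateral replicates 1, 2 and 3. Stroke animals were all far above sham animals, replicate 2 the least, and the log2 fold change was 6.17 (SE 0.45, adjusted p = 1.23e-07). Ccl4, a chemokine of activated microglia and macrophages (chr11:83662584-83664683, plus strand), read 0.0463, 0 and 0 CPM in sham and 1.74, 0.662 and 20.1 CPM in stroke cortex (adjusted p = 0.00145, and 0.118 when the 6 libraries were fitted alone). Replicate 3 held most of the Ccl4 counts. With 2 sham counts against 982, the pooled ratio was 447 with a 95% interval of 123 to 3690.0, where this and later intervals cover counting error only. Tlr2, a receptor for microbial and damage signals, read 0.371, 0.364 and 0.7 CPM and 5.02, 4.12 and 7.3 CPM (log2 3.54, SE 0.39, adjusted p = 9.17e-07). A2m, the protease trap alpha-2-macroglobulin, read 1.78, 1.64 and 1.78 CPM and 20.3, 19.5 and 33.6 CPM (log2 3.82, SE 0.59, adjusted p = 4.68e-04). Both were several-fold above sham in each stroke animal. Esr1, the gene of oestrogen receptor alpha, read 2.69, 3.85 and 2.92 CPM and 33.3, 15.5 and 17.8 CPM (log2 2.82, SE 0.41, adjusted p = 1.95e-04), highest in replicate 1. Ttll13, of the tubulin ligase-like family, read 0.811, 1.21 and 0.962 CPM and 13, 5.5 and 25.2 CPM (log2 3.87, adjusted p = 2.1e-07), highest in replicate 3. Fitted to the 6 libraries alone with the day of surgery as a block, Ttll13 (0.0627) did not pass. Gm15124 (log2 4.72, adjusted p = 5.94e-06) is annotated as antisense, and with no strand setting given its reads cannot be told apart from those of an overlapping gene. The others, Hspa1a, Hspb1, Hmox1, Atf3, Stc2, Chac1 and Ccl9, are described with their groups.

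**Figure D2:**
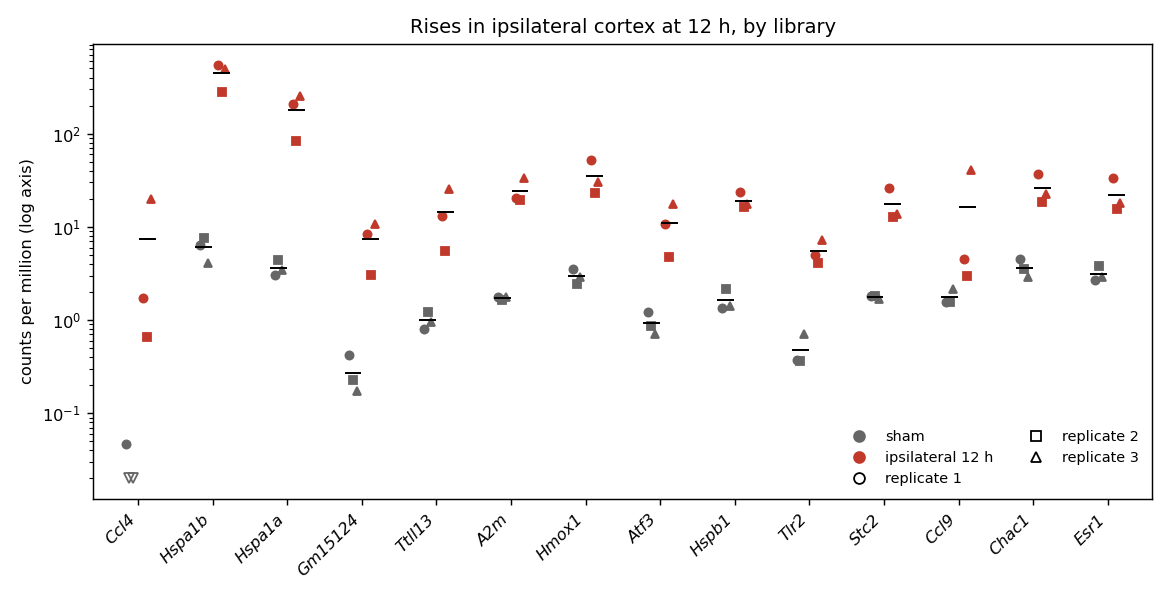
CPM (log axis) of the 14 largest rises in each sham (grey) and ipsilateral 12 h (red) library. Circles, squares and triangles are replicates 1, 2 and 3, black bars are group means, and open triangles mark values below the axis floor. The genes were chosen for having no overlap between groups, and the replicate 3 value of Ccl9 (41.2 CPM) stands apart.

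Heat shock chaperones rose in 19 of 23 members and fell in none, with a median log2 fold change of 1.16. List counts here and below stand beside the 6.58% of all tested genes that rose and the 3.72% that fell. The list median in ipsilateral replicates 1, 2 and 3 was 1.46, 1.07 and 0.859 above the sham mean. Hspa1a, the near-identical neighbour of Hspa1b (chr17:34969190-34972156, minus strand), read 3.03, 4.41 and 3.44 CPM in sham and 209, 83.6 and 251 CPM in stroke cortex (log2 5.64, SE 0.39, adjusted p = 5.33e-08). Reads of the pair can be split or exchanged between copies, so each single value is uncertain. Hspb1, the small chaperone HSP27 (chr5:135887919-135889563, plus strand), read 1.34, 2.14 and 1.4 CPM and 23.4, 16.4 and 17.5 CPM (log2 3.55, SE 0.3, adjusted p = 5.33e-08). Hsph1, an HSP110 that recharges HSP70 with nucleotide, read 185, 168 and 159.7 CPM and 1313, 690.0 and 940.2 CPM (log2 2.52, adjusted p = 9.44e-08). The groups did not overlap for these genes. Dnajb1, an HSP40 partner of HSP70, rose as well (log2 2.53, adjusted p = 7.73e-07), as did chaperones abundant in healthy cortex: Hsp90aa1 (log2 0.91, adjusted p = 0.00125) and Hspa8 (log2 0.61, adjusted p = 0.00756). The mitochondrial chaperonin genes Hspd1 and Hspe1 rose by 1.74 and 1.79. With 1 library left out, 14 (without ipsilateral replicate 1) to 19 members rose. Hspa8 was lost without ipsilateral 1 (0.0666). In contralateral cortex at 12 h no member passed against the same sham libraries, with a list median of -0.113, and 19 of 23 were higher in ipsilateral than in contralateral cortex.

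Promoters of 3 of these chaperones are shown because heat shock factors bind repeats of GAA and its complement. They are RefSeq sequences on GRCm38.p6, 250 bases before to 50 bases after the gene start, 5′ to 3′ on the strand of the gene, with matches to GAANNTTC (a palindrome, so both strands are read at once) in capitals. Hspa1b is at chr17:34959189-34959488 (minus strand), Hspa1a at chr17:34972107-34972406 (minus strand) and Hspb1 at chr5:135887669-135887968 (plus strand).
Hspa1b: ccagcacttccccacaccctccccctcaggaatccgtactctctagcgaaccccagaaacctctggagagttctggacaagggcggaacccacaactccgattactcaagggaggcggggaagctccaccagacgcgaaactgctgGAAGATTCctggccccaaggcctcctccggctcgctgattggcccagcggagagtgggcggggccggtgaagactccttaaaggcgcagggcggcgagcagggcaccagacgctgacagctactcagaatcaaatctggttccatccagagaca
Hspa1a: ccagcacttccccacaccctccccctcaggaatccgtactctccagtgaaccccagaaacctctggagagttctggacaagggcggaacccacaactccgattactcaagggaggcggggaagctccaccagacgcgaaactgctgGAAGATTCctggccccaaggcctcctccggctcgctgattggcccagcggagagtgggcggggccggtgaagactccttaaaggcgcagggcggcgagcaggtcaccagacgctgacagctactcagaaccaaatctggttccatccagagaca
Hspb1: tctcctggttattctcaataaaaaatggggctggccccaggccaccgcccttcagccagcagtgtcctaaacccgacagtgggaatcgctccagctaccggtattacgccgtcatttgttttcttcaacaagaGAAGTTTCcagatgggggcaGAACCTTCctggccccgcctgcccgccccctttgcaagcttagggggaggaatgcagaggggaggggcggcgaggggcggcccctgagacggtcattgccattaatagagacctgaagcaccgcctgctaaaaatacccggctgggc
The promoters of Hspa1a and Hspa1b were identical at 296 of 300 positions (98.7%), and the match began 104 bases before the start in both. Hspb1 had 2 matches, 117 and 97 bases before its start. A match was present in 10 of the 19 listed chaperone promoters in the table: those of Bag3, Chordc1, Dnaja1, Fkbp4, Hspa1a, Hspa1b, Hspb1, Hspb8, Hspe1 and Hsph1. Over all 12403 promoters of tested genes 747 (6.02%) held one, as did 6.43% of those of genes that rose and 4.9% of those of genes that fell.

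Integrated stress response genes, mostly targets of ATF4, rose in 14 of 20 members and fell in none, with a median of 0.872. Trib3, a pseudokinase induced by ATF4, read 0.394, 0.182 and 0.175 CPM in sham and 5.02, 2.31 and 3.26 CPM in stroke cortex (log2 3.79, SE 0.44, adjusted p = 2.21e-06). Chac1, an enzyme that breaks down glutathione (chr2:119351229-119354381, plus strand), read 4.49, 3.55 and 2.92 CPM and 36.7, 18.7 and 22.6 CPM (log2 2.83, SE 0.29, adjusted p = 6.61e-07). Stc2, a secreted glycoprotein, read 1.83, 1.82 and 1.69 CPM and 25.9, 12.7 and 13.8 CPM (log2 3.29, SE 0.42, adjusted p = 3.13e-05). In all 3 genes the groups were well apart, replicate 1 was highest and replicate 2 lowest. Sesn2, an inhibitor of mTORC1 signalling (log2 2.04, adjusted p = 4.11e-05), Gdf15, a stress hormone (log2 3.59, adjusted p = 8.72e-04), Ddit3, the death-promoting factor CHOP (log2 0.91, adjusted p = 0.00464), and Atf4 itself (log2 0.5, adjusted p = 0.046) rose too. With 1 library left out, 10 to 13 members rose, and Atf4 did not pass with no filter (0.0503). Its call was lost without ipsilateral 1, ipsilateral 2, ipsilateral 3, sham 1, sham 2 or sham 3 (0.0573 to 0.17).

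Chaperones of the endoplasmic reticulum, the targets of other branches of the unfolded protein response, gave 1 rise among 20 genes, no fall and a median of -0.0275. That count is near the share of all tested genes that rose (6.58%). The riser was Edem1, which sends misfolded glycoproteins to degradation (log2 0.54, adjusted p = 0.0153); it did not pass without sham replicate 1 (0.0676) or ipsilateral replicate 1 (0.0782). Hspa5, the chaperone BiP, read 210.2, 219 and 222 CPM in sham and 358, 232 and 277 CPM in stroke cortex, higher in every stroke animal but not past the test (log2 0.41, adjusted p = 0.225). Under the surgery-day block 2 members rose, and without ipsilateral replicate 2 the count was also 2.

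The Chac1 promoter (chr2:119350992-119351291, plus strand) is shown in the same window for its match to TGATGNAA, the core of the element that ATF4 binds, searched on both strands and capitalised; the motif was chosen after expression values were seen.
Chac1: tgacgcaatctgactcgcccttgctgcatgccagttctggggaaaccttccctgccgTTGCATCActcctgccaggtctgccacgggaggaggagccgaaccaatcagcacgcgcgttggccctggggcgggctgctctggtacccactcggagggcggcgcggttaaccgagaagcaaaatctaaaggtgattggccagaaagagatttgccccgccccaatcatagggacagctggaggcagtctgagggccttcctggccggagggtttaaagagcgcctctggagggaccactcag
The match lies on the opposite strand, 193 bases before the gene start. It was found in 4 of 19 promoters of the stress response list (Asns, Chac1, Nupr1 and Trib3), in 2.4% of all promoters of tested genes, in 4.4% of those of genes that rose and in 2.45% of those of genes that fell.

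Antioxidant and metal-binding genes rose in 4 of 18 members and fell in none, with a median of 0.156. Hmox1, heme oxygenase 1, read 3.52, 2.41 and 2.92 CPM in sham and 52.2, 23.1 and 30.2 CPM in stroke cortex (log2 3.57, SE 0.32, adjusted p = 2.97e-07), with the lowest stroke animal well above the highest sham animal. Txnrd1, a thioredoxin reductase (log2 0.91, adjusted p = 1e-05), Srxn1, which repairs peroxiredoxins (log2 0.82, adjusted p = 2.13e-05), and the metallothionein Mt1 (log2 0.61, adjusted p = 0.0135) also rose. Mt1 was lost without sham replicate 2 (0.0838) or ipsilateral replicate 3 (0.0562).

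Genes of p53 signalling, growth arrest and cell death rose in 8 of 24 members and fell in none, with a median of 0.33. Pmaip1, the death-promoting NOXA, read 3.06, 2.3 and 1.57 CPM in sham and 8.07, 7.16 and 5.18 CPM in stroke cortex (log2 1.55, SE 0.28, adjusted p = 7.22e-04). Bbc3, the related PUMA (log2 1.44, adjusted p = 0.0083), and the cell-cycle inhibitor Cdkn1a (log2 0.98, adjusted p = 0.0219) rose, and so did genes that oppose death: Mcl1 (log2 0.47, adjusted p = 0.00425) and Mdm2, which degrades p53 (log2 0.6, adjusted p = 0.00198). Gadd45b, a stress sensor, read 8.59, 5.62 and 5.34 CPM and 20.6, 8.56 and 23.6 CPM (log2 1.43, adjusted p = 8.91e-04); its groups touched, since ipsilateral replicate 2 lay just under sham replicate 1. Losses were Bbc3 without ipsilateral 1 (0.0531) or sham 3 (0.0523) and Cdkn1a without ipsilateral 1, ipsilateral 3, sham 1, sham 2 or sham 3 (0.0517 to 0.108). Fitted to the 6 libraries alone, Gadd45b (0.123) did not pass, nor with the day of surgery as a block in addition (0.0673).

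CC chemokines and receptors rose in 5 of 17 tested genes and fell in 1, with a median of 1.47 and list medians of 1.06, 0.358 and 1.97 in ipsilateral replicates 1, 2 and 3. Ccl3, a macrophage chemokine related to Ccl4, read 0.0926, 0 and 0.0583 CPM in sham and 1.66, 0.343 and 11.9 CPM in stroke cortex, a pooled ratio of 92.5 with a 95% interval of 42.2 to 253 (adjusted p = 0.00344). Ccl2, the main ligand of the monocyte receptor CCR2, read 0.185, 0.091 and 0.0583 CPM and 1.05, 0.515 and 7.02 CPM (log2 4.61, adjusted p = 0.0154). Ccl12, a second ligand of that receptor, read 0.533, 0.273 and 0.321 CPM and 2.77, 2.11 and 6.38 CPM (log2 3.3, SE 0.56, adjusted p = 4.56e-04). In each of these genes replicate 3 was the highest and replicate 2 the lowest. Ccl9, a macrophage chemokine, read 1.55, 1.57 and 2.13 CPM and 4.55, 2.94 and 41.2 CPM (log2 3.22, adjusted p = 0.0241), and Ccl27a, one of the chemokines made by resting brain, fell from 27.4, 22.8 and 24.9 CPM to 14.1, 19.4 and 15.2 CPM (log2 -0.63, adjusted p = 0.00944). Ccl2 was lost without ipsilateral 3, sham 1, sham 2 or sham 3 (0.0501 to 0.137). Losses among the other genes named were Ccl9 without ipsilateral 3, sham 1, sham 2 or sham 3 (0.0726 to 0.373) and Ccl27a without ipsilateral 1, ipsilateral 3 or sham 1 (0.0509 to 0.0874). The number of rises was 9 without ipsilateral 2 and 3 without ipsilateral 3, sham 1, sham 2 or sham 3. When the 6 libraries were fitted alone, Ccl2 (0.122), Ccl3 (0.131) and Ccl9 (0.204) did not pass.

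CXC and CX3C genes gave 3 rises and 1 fall among 12. Cxcl1, a neutrophil attractant, read 0.185, 0 and 0.117 CPM in sham and 1.01, 0.196 and 4 CPM in stroke cortex (log2 4.09, adjusted p = 0.0025). Cxcl10, an interferon-induced attractant of T cells, had 4 counts in sham and 88 in stroke cortex, a ratio of 20.0 with a 95% interval of 7.54 to 75.1. Cxcl16 rose as well (log2 1.42, adjusted p = 0.00389). The count of rises was 5 without ipsilateral 2 and 1 without ipsilateral 3, and the calls lost were Cxcl10 without ipsilateral 3 (0.0646) and Cxcl16 without ipsilateral 3 (0.0576). Cx3cl1, the neuronal chemokine that restrains microglia, fell from 457, 459.9 and 522 CPM to 304, 357 and 304 CPM (log2 -0.58, SE 0.12, adjusted p = 0.00192). All stroke animals were below all sham animals, and the fall passed with any 1 library left out.

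Interleukin 1 and tumour necrosis factor genes rose in 10 of 17 members and fell in 1, with a median of 1.48. Tnf read 0.0463, 0.091 and 0 CPM in sham and 1.17, 0.932 and 1.73 CPM in stroke cortex, a pooled ratio of 25.9 with a 95% interval of 11.7 to 71.6 (adjusted p = 6.7e-05). Its receptor Tnfrsf1a read 3.73, 4.39 and 4.14 CPM and 9.22, 10.5 and 14.4 CPM (log2 1.48, SE 0.23, adjusted p = 1.06e-04). Tnfrsf12a, the receptor of TWEAK, read 2.34, 2.64 and 2.33 CPM and 7.52, 7.38 and 9.96 CPM (log2 1.76, adjusted p = 3.26e-04). These genes were above sham in every stroke animal and highest in replicate 3. The alarm cytokine Il1a rose too (log2 2.58, adjusted p = 0.00251). Il1rn, the antagonist of the interleukin 1 receptor, had no sham count and 0.809, 0.0981 and 7.23 CPM in stroke cortex, at least 108-fold higher when sham is set at 3 counts in all (adjusted p = 0.0341). Il1b read 0.185, 0.137 and 0.233 CPM and 0.485, 0.196 and 2.31 CPM (log2 2.43, adjusted p = 0.0241), with overlap between the groups because ipsilateral replicate 2 was within the sham range. Il18, another member of the interleukin 1 family, fell (log2 -0.55, adjusted p = 0.0385). The number of rises was 6 without ipsilateral 1 or sham 3, 5 without ipsilateral 3 and 4 without sham 1 or sham 2. Il1rn was lost without ipsilateral 1, ipsilateral 3, sham 1, sham 2 or sham 3 (0.052 to 0.166). Il1b was lost without ipsilateral 3, sham 1, sham 2 or sham 3 (0.0618 to 0.48), and Il18 was lost without ipsilateral 1, ipsilateral 2, sham 1, sham 2 or sham 3 (0.0719 to 0.183). With the day of surgery as a block Il1rn (0.0609) did not pass, and fitted to the 6 libraries alone Il1b (0.106) did not.

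Interleukin 6 and STAT3 genes rose in 5 of 16 members and fell in none. Osmr, the oncostatin M receptor, read 6.97, 7.78 and 7.96 CPM in sham and 21, 16.8 and 27.5 CPM in stroke cortex (log2 1.52, adjusted p = 0.00422). Socs3, the feedback inhibitor, read 2.78, 2.41 and 2.45 CPM and 5.06, 2.97 and 15.5 CPM (log2 1.62, adjusted p = 0.0309), so that replicate 3 stood apart. Stat3 (log2 0.52, adjusted p = 0.0144), the kinase Jak2 (log2 0.54, adjusted p = 0.0238) and the coactivator Bcl3 (log2 1.78, adjusted p = 0.0456) rose, while Il6 itself read 0.0926, 0 and 0 CPM and 0.142, 0 and 1.83 CPM (log2 4.2, adjusted p = 0.127). The count of rises was 2 without ipsilateral 3, sham 1 or sham 3 and 1 without sham 2. Calls were lost for Socs3 without ipsilateral 3, sham 1, sham 2 or sham 3 (0.0834 to 0.303) and Stat3 without ipsilateral 3 (0.104) or sham 2 (0.0667). Jak2 was lost without ipsilateral 1, sham 1, sham 2 or sham 3 (0.0502 to 0.141), and Bcl3 was lost without ipsilateral 3, sham 1, sham 2 or sham 3 (0.0821 to 0.615). Under the surgery-day block Bcl3 (0.0636) did not pass, and fitted to the 6 libraries alone Socs3 (0.227) and Bcl3 (0.0775) did not.

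NF-kappaB genes rose in 4 of 18 members, Nfkbid (log2 1.4, adjusted p = 0.0012), Nfkb2 (log2 1.28, adjusted p = 0.00843), Nfkbiz (log2 0.84, adjusted p = 0.00356) and Relb (log2 0.75, adjusted p = 0.00752), and none fell. The count was 7 without ipsilateral 2 and 2 without ipsilateral 3. Losses were Nfkb2 without ipsilateral 3 (0.157) or sham 1 (0.0502), Nfkbiz without ipsilateral 3 (0.061) and Relb without sham 2 (0.0509). Interferon-stimulated genes rose in 4 of 24 members, the antiviral GTPases Mx1 (log2 1.99, adjusted p = 0.0115), Mx2 (log2 1.14, adjusted p = 0.0331) and Gbp2 (log2 1.12, adjusted p = 0.0327) and the factor Irf9 (log2 0.71, adjusted p = 0.0217), with none fallen and a median of 0.177. The count of these was 2 without ipsilateral 1 or sham 3, 1 without ipsilateral 3 or sham 2 and 0 without sham 1. Losses were Mx1 without sham 1 (0.062) or sham 2 (0.0518) and Mx2 without ipsilateral 1, ipsilateral 3, sham 1, sham 2 or sham 3 (0.0766 to 0.175). Gbp2 was lost without ipsilateral 1, ipsilateral 3, sham 1, sham 2 or sham 3 (0.0729 to 0.129), and Irf9 was lost without ipsilateral 3 (0.308) or sham 1 (0.124). In the 6 libraries alone, Nfkb2 (0.0647) and Irf9 (0.0982) did not pass, and with the day of surgery as a block in addition Nfkbiz (0.122) did not.

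Adhesion genes of leukocyte entry rose in 3 of 13 members and fell in 1. Sele, the endothelial selectin that slows white blood cells, read 0.0463, 0.091 and 0.0583 CPM in sham and 0.243, 0.0981 and 3.93 CPM in stroke cortex, a pooled ratio of 21.1 with a 95% interval of 10.5 to 49.7 (adjusted p = 0.0175). Nearly all of its counts came from replicate 3. Icam1, an endothelial integrin ligand (log2 1.59, adjusted p = 0.0118), and Itga5, a fibronectin receptor subunit (log2 1.14, adjusted p = 0.0179), rose, and Selplg, a selectin ligand also listed as a microglia marker, fell (log2 -1.0, adjusted p = 0.0046). The number of rises was 0 without ipsilateral 3 or sham 2 and 1 without sham 1 or sham 3, and 2 members fell without ipsilateral 3. Sele was lost without ipsilateral 3, sham 1, sham 2 or sham 3 (0.0658 to 0.423), and Icam1 was lost without ipsilateral 3 (0.109) or sham 2 (0.0743). Other losses were Itga5 without ipsilateral 3, sham 1, sham 2 or sham 3 (0.0501 to 0.21) and Selplg without ipsilateral 1 (0.0525). When the 6 libraries were fitted alone, Itga5 (0.0789) did not pass.

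Complement genes rose in 4 of 14 members, a number that stood at 4 with any 1 library left out, and none fell. C5ar1, a receptor of the complement fragment C5a, read 0.556, 0.319 and 0.525 CPM in sham and 2.69, 2.26 and 7.02 CPM in stroke cortex (log2 3.1, SE 0.42, adjusted p = 2.52e-05). C3ar1, the receptor of C3a, read 2.22, 1.59 and 2.16 CPM and 7.68, 5.32 and 13.3 CPM (log2 2.14, SE 0.34, adjusted p = 2.55e-04). Both were highest in replicate 3, without overlap between groups. The integrin Itgax rose (log2 2.31, adjusted p = 0.00297), and Cfd, the protease factor D, had 1 sham count against 48, a ratio of 43.7 with a 95% interval of 7.47 to 1760.0.

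Matrix proteases and their inhibitors rose in 4 of 20 members and fell in none. Mmp12, the macrophage elastase, had 4 counts in sham and 465 in stroke cortex, a ratio of 106 with a 95% interval of 41 to 390.0, and read 2.55, 1.32 and 6.59 CPM in ipsilateral replicates 1, 2 and 3. Timp1, an inhibitor of these enzymes, read 0.834, 0.341 and 0.408 CPM in sham, 2.12, 2.75 and 6.22 CPM in ipsilateral and 2.81, 1.37 and 2.67 CPM in contralateral cortex (log2 2.79, adjusted p = 0.00556 for ipsilateral against sham; adjusted p = 0.233 for contralateral). Mmp19 (log2 1.44, adjusted p = 0.0241) and Mmp13, with 2 and 43 counts and a ratio of 19.6 with a 95% interval of 5.09 to 167, were the others. The number of rises was 2 without ipsilateral 3, sham 2 or sham 3, with losses for Mmp19 without ipsilateral 3, sham 2 or sham 3 (0.0865 to 0.272) and Mmp13 without ipsilateral 1, ipsilateral 3, sham 2 or sham 3 (0.0798 to 0.108).

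Plasminogen system genes rose in 4 of 12 members, among them Procr, the protein C receptor (log2 2.57, adjusted p = 0.0071), the urokinase receptor Plaur (log2 1.77, adjusted p = 0.0388) and the protease inhibitor Serpina3n (log2 1.34, adjusted p = 0.0362). With the day of surgery as a block 2 rose, and Plaur came to an adjusted p of 0.0538. The number was 2 without ipsilateral 1 or sham 3 and 1 without ipsilateral 3, sham 1 or sham 2, with losses for Plaur without ipsilateral 3, sham 1, sham 2 or sham 3 (0.0818 to 0.355) and Serpina3n without ipsilateral 1, ipsilateral 3, sham 1, sham 2 or sham 3 (0.057 to 0.157). Plaur did not pass with no filter (0.0564) or in the 6 libraries alone (0.126).

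Markers of blood cells were read beside the inflammatory genes. None of the 9 neutrophil markers tested passed in edgeR (4 at an unadjusted p under 0.05). Their list median was 1.04, and their summed level was 5.49, 5.39 and 4.9 CPM in sham, 7.27, 6.49 and 8.04 CPM in contralateral and 6.17, 6.89 and 13.5 CPM in ipsilateral replicates 1, 2 and 3. Ipsilateral replicate 3, the highest library for the chemokines that rose, was also the highest for these markers and for the mitochondrial share. S100a9, an abundant protein of neutrophils, read 0.324, 0.0455 and 0.233 CPM in sham and 0.324, 0.859 and 3 CPM in stroke cortex (log2 2.78, adjusted p = 0.0569). Among defining neutrophil genes too low to test, Ngp, Ltf and Trem1 had 4, 0 and 0 counts in sham, 9, 16 and 2 in contralateral and 6, 6 and 10 in ipsilateral cortex, over 3 libraries each. None of 15 monocyte and macrophage markers passed (1 at an unadjusted p under 0.05), and their sum was 67.3 to 110.2 CPM in sham and 84.3 to 132 CPM in stroke cortex. Of 4 lymphocyte markers tested Ighm, the immunoglobulin heavy chain mu, fell (log2 -1.13, adjusted p = 0.0175; lost without ipsilateral 1, ipsilateral 3 or sham 1 (0.0781 to 0.0984)), with sums of 11.9 to 19.1 CPM in sham and 7.09 to 9.67 CPM in stroke cortex. The red cell globins Hbb-bt (log2 -0.95, adjusted p = 0.0161) and Hba-a2 (log2 -0.74, adjusted p = 0.0263) fell among 11 red cell and platelet markers, whose sum was 84.1 to 102 CPM in sham and 56.8 to 83.6 CPM in stroke cortex; the losses were Hbb-bt without ipsilateral 1, ipsilateral 2, sham 1 or sham 3 (0.0615 to 0.0835) and Hba-a2 without ipsilateral 1, ipsilateral 2, sham 1 or sham 3 (0.0842 to 0.164). Contralateral sums at 12 h were 114 to 125 CPM for monocyte and macrophage markers and 7.88 to 13.2 CPM for lymphocyte markers. For red cell and platelet markers the contralateral sum was 58.3 to 71.7 CPM, also below sham. No member of these lists passed in contralateral cortex against sham or between the hemispheres. The part of blood cells in the inflammatory rises was not tested.

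Reactive astrocyte genes rose in 11 of 24 members and fell in none, with a median of 1.32 and list medians of 0.829, 0.935 and 1.74 in ipsilateral replicates 1, 2 and 3. Gfap, the intermediate filament of astrocytes (chr11:102887336-102900912, minus strand), read 63.5, 81.6 and 83.5 CPM in sham and 189.6, 253 and 222 CPM in stroke cortex (log2 1.54, SE 0.28, adjusted p = 0.00124). Vim, its partner in reactive cells, read 19.5, 17.5 and 19.6 CPM and 40.1, 46 and 54.2 CPM (log2 1.31, adjusted p = 0.00464). Cd44, a hyaluronan receptor, read 3.96, 3.32 and 3.97 CPM and 11.4, 11 and 16 CPM (log2 1.77, adjusted p = 0.0111). Every stroke animal exceeded every sham animal for these genes. Slc10a6, a carrier of steroid sulfates, rose from 0.185, 0.182 and 0.233 CPM to 2.18, 1.08 and 2.63 CPM (log2 3.29, adjusted p = 4.56e-04). Lcn2, a secreted protein of the same state, read 2.08, 2.87 and 2.36 CPM and 1.01, 1.91 and 8.41 CPM (log2 0.63, adjusted p = 0.638). Among the 11 are Hspb1, Timp1, Cxcl10, Osmr and Serpina3n, counted above under other lists too. The number of rises was 7 without ipsilateral 3 or sham 2, and among the genes named above the loss was Cd44 without sham 2 (0.0547). Of 16 markers of resting astrocytes Sox9, an astrocyte transcription factor, rose (log2 0.91, adjusted p = 0.00447; lost without ipsilateral 3 (0.0528)), and none fell; they summed to 5033 to 6190.0 CPM in sham and 4377 to 5235 CPM in stroke cortex.

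Markers of resting microglia fell in 4 of 15 members and rose in none. P2ry12, the ADP receptor that guides microglial processes (chr3:59216272-59262871, minus strand), read 15.1, 10.3 and 19 CPM in sham and 6.67, 7.58 and 5.31 CPM in stroke cortex (log2 -1.18, SE 0.29, adjusted p = 0.0104). Siglech, a sialic acid receptor, read 8.06, 8.78 and 10.3 CPM and 4.65, 4.46 and 5.15 CPM (log2 -0.93, SE 0.22, adjusted p = 0.00556). These receptors, with Selplg and the sugar carrier Slc2a5 (log2 -1.13, adjusted p = 0.0173), were lower in every stroke animal. Cx3cr1, the receptor of Cx3cl1, did not pass (log2 0.48, adjusted p = 0.29). The sum of the 15 markers overlapped between groups, at 273 to 324 CPM in sham and 254 to 281 CPM in stroke cortex. In bulk tissue, fewer cells of a type and less RNA per cell cannot be told apart. The number of falls was 2 without ipsilateral 1, ipsilateral 3 or sham 3, with losses for P2ry12 without ipsilateral 3 (0.0617) or sham 3 (0.0618), Slc2a5 without ipsilateral 1, ipsilateral 3, sham 1 or sham 3 (0.0699 to 0.086) and Selplg without ipsilateral 1 (0.0525).

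**Figure D3:**
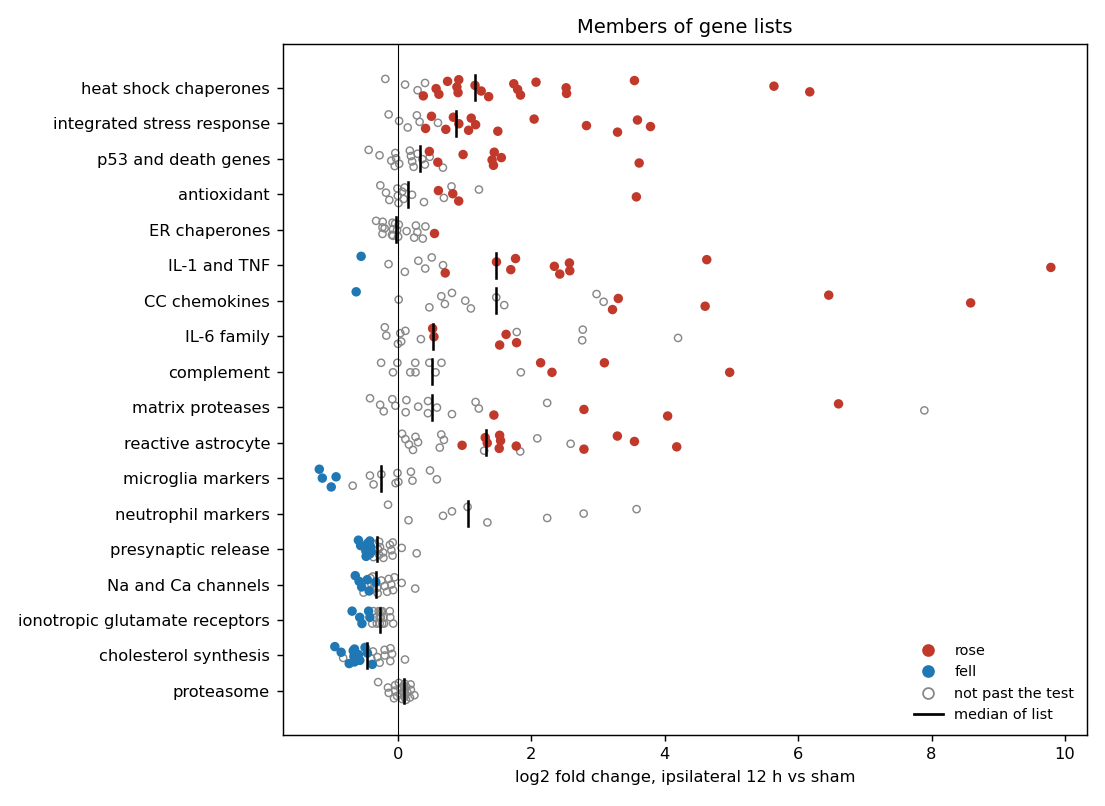
Log2 fold change between ipsilateral cortex at 12 h and sham (horizontal axis) of the tested members of 18 gene lists, 1 point per gene. Filled red and blue points rose and fell, open points did not pass the test and black bars are list medians; the heat shock and stress response medians lie right of 0, the synaptic, channel and cholesterol medians slightly left of it.

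Genes of neurotransmitter release fell in 10 of 24 members and rose in none, by small amounts, with a median of -0.321. Syp, the vesicle protein synaptophysin (chrX:7638471-7653256, plus strand), read 632, 619 and 657 CPM in sham and 421, 495 and 455 CPM in stroke cortex (log2 -0.48, SE 0.1, adjusted p = 0.00348). Unc13a, which primes vesicles for fusion, read 416, 408 and 444 CPM and 254, 313 and 274 CPM (log2 -0.59, SE 0.13, adjusted p = 0.00366). The groups did not overlap for either gene, and the 3 stroke animals were close to one another. Syn1, which tethers vesicles (log2 -0.44, adjusted p = 0.00536), and the vesicle GTPase Rab3a (log2 -0.45, adjusted p = 0.00823) fell as well. The list medians in ipsilateral replicates 1, 2 and 3 were -0.378, -0.304 and -0.35. The number of falls was 3 without ipsilateral 1, 5 without ipsilateral 3, 2 without sham 1 and 6 without sham 2, with losses for Syn1 without sham 1 (0.0625) and Rab3a without ipsilateral 1 (0.0718) or sham 1 (0.0723).

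Sodium and calcium channel genes fell in 6 of 23 members and rose in none (median -0.332), and potassium channel genes fell in 7 of 28 and rose in none (median -0.241), so most members of both lists did not pass. Scn2b, an auxiliary sodium channel subunit, read 298, 335 and 304 CPM in sham and 196, 231 and 199 CPM in stroke cortex (log2 -0.58, SE 0.12, adjusted p = 0.00203). The pore subunits Scn1a (log2 -0.46, adjusted p = 0.00785), Scn8a (log2 -0.43, adjusted p = 0.00706) and Scn2a1 (log2 -0.54, adjusted p = 0.00996) fell too. Kcnip2, which sets A-type potassium currents, read 48.8, 50.2 and 45.8 CPM and 33, 33.9 and 30.6 CPM (log2 -0.57, SE 0.12, adjusted p = 0.00205), and its channel partner Kcnd2 fell (log2 -0.53, adjusted p = 0.0114). Scn2b and Kcnip2 were lower in every stroke animal and passed with any 1 library left out. The falls numbered 3 without ipsilateral 3 or sham 3 for sodium and calcium channels and 2 without ipsilateral 1, 3 without ipsilateral 3 or sham 3 and 4 without sham 1 for potassium channels, with losses for Scn8a without sham 3 (0.0523), Scn2a1 without ipsilateral 3 (0.0534) and Kcnd2 without ipsilateral 1 (0.07).

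Receptors of the main transmitters fell in a minority of members and rose in none. Ionotropic glutamate receptor genes fell in 5 of 21 (median -0.275), metabotropic ones in 2 of 7 (median -0.305) and GABA receptor genes in 2 of 14 (median -0.26). Cacng8, an auxiliary AMPA receptor subunit, read 25.7, 26.1 and 25.7 CPM in sham and 14.5, 17.1 and 16.5 CPM in stroke cortex (log2 -0.69, adjusted p = 0.00873). Gria3, a pore subunit, read 243, 236 and 257 CPM and 158, 181 and 168 CPM (log2 -0.54, adjusted p = 0.0267). Grm4, a presynaptic glutamate receptor, read 28.2, 26.4 and 29.7 CPM and 15.1, 15.4 and 17.2 CPM (log2 -0.82, adjusted p = 0.00292), and Gabbr1, of the GABA B receptor, read 709, 740.1 and 791 CPM and 511, 607 and 584 CPM (log2 -0.4, adjusted p = 0.00944). All 4 were lower in every stroke animal. The ionotropic falls numbered 1 without ipsilateral 1, ipsilateral 3 or sham 3, 3 without ipsilateral 2 and 2 without sham 1 or sham 2, the metabotropic ones 1 without ipsilateral 1, sham 1 or sham 3 and the GABA ones 0 without ipsilateral 1 or sham 3, with losses for Cacng8 without ipsilateral 1 (0.0685), Gria3 without ipsilateral 1, ipsilateral 3, sham 1, sham 2 or sham 3 (0.0556 to 0.126) and Gabbr1 without ipsilateral 1 (0.0967) or sham 3 (0.0539).

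Genes that clear and recycle glutamate changed in both directions, with 2 rises and 4 falls among 19 and a median of -0.248. The astrocyte transporter Slc1a2, which removes most glutamate from the synapse, read 2644, 2855 and 3406 CPM in sham and 2302, 2348 and 2842 CPM in stroke cortex (log2 -0.25, adjusted p = 0.28). Slc1a3 (log2 -0.16, adjusted p = 0.543) and Glul, glutamine synthetase (log2 -0.16, adjusted p = 0.404), did not pass either. The neutral amino acid carriers Slc1a4 (log2 0.56, adjusted p = 0.0032) and Slc38a2 (log2 0.56, adjusted p = 0.0176) rose, and Slc7a10 (log2 -0.81, adjusted p = 0.00765) and Slc17a7 (log2 -0.45, adjusted p = 0.0101) fell. The rises numbered 1 without ipsilateral 1, sham 1 or sham 2 and the falls 0 without ipsilateral 1, 2 without sham 1 or sham 3 and 1 without sham 2, with losses for Slc38a2 without ipsilateral 1, sham 1 or sham 2 (0.0581 to 0.109), Slc7a10 without ipsilateral 1 (0.0882) or sham 2 (0.0509) and Slc17a7 without ipsilateral 1 (0.108) or sham 3 (0.0504).

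Markers of neuron types were counted beside the 3.72% of all tested genes that fell. Of 20 excitatory neuron markers 5 fell and none rose, and their summed level was 2978, 2694 and 3120.0 CPM in sham and 2257, 2526 and 2615 CPM in stroke cortex. Lamp5 (log2 -0.62, adjusted p = 0.00383), Etv1 (log2 -0.5, adjusted p = 0.0246) and Bcl11b (log2 -0.55, adjusted p = 0.0386) were among them. The others were Slc17a7, counted above under glutamate recycling too, and Nr4a2, counted below under immediate early factors too. Of 16 interneuron markers 1, the neuropeptide gene Cck, fell (log2 -0.59, adjusted p = 0.0107), a share near that of all genes, and the sums were 973, 1011 and 989.9 CPM and 782, 822 and 794 CPM. Both sums were lower in every stroke animal. The excitatory falls numbered 1 without ipsilateral 1, 2 without ipsilateral 3 or sham 1 and 3 without sham 2 or sham 3, with losses for Etv1 without ipsilateral 1, ipsilateral 3 or sham 1 (0.0656 to 0.225), Bcl11b without ipsilateral 1, ipsilateral 2, ipsilateral 3, sham 1 or sham 2 (0.0594 to 0.143) and Cck without ipsilateral 1 (0.124). Under the surgery-day block 2 interneuron markers fell.

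The largest falls among genes of at least 5 CPM in sham without overlap were smaller than the largest rises. Pltp, a phospholipid transfer protein, read 16.5, 14.2 and 17.6 CPM in sham and 6.57, 7.8 and 6.1 CPM in stroke cortex (log2 -1.24, SE 0.27, adjusted p = 0.00426). Ppp1r3g, which directs a phosphatase to glycogen, read 10.8, 11 and 13.1 CPM and 4.31, 6.16 and 4.44 CPM (log2 -1.22, SE 0.22, adjusted p = 5.01e-04). Pkp2, a desmosomal plakophilin, read 7.27, 9.56 and 8.95 CPM and 3.68, 3.04 and 4.58 CPM (log2 -1.19, SE 0.18, adjusted p = 1.19e-04). These genes passed with any 1 library left out, as did the neurotensin receptor Ntsr1 (log2 -1.08, adjusted p = 0.00466). P2ry12, Nr4a1 and Ighm also belong to the 10 largest falls. The other three, Scarna3a (log2 -1.81, adjusted p = 0.0369), a small Cajal body RNA, and Gm15425 (log2 -1.34, adjusted p = 0.0346) and Gm11223 (log2 -1.09, adjusted p = 0.00436), processed pseudogenes, are uncertain because reads of other copies can map to them, and losses were Scarna3a without ipsilateral 1, ipsilateral 2, ipsilateral 3 or sham 1 (0.0521 to 0.356), Gm15425 without ipsilateral 1, ipsilateral 2, sham 1 or sham 3 (0.075 to 0.174) and Gm11223 without sham 1 (0.0778). In the 6 libraries alone, Scarna3a (0.229) and Gm15425 (0.154) did not pass, and with no filter Scarna3a (0.0509) did not.

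Genes of cholesterol synthesis fell in 12 of 23 members and rose in none, with a median of -0.457. Fdps, which makes farnesyl diphosphate (chr3:89093588-89101959, minus strand), read 54.8, 54.8 and 48.3 CPM in sham and 26.2, 28.4 and 27.3 CPM in stroke cortex (log2 -0.95, SE 0.13, adjusted p = 2.36e-05). Mvd, an earlier enzyme of the same path, read 15.8, 14.3 and 15.3 CPM and 8.33, 6.72 and 10.1 CPM (log2 -0.85, adjusted p = 0.00251). The stroke animals were below sham in both genes. Contralateral cortex at 12 h read 34.3, 36.2 and 34.1 CPM for Fdps and 5.94, 6.81 and 6.85 CPM for Mvd. Against the same sham libraries 3 members fell in contralateral cortex (Mvd, Insig1 and Fdps), with a list median of -0.362. Contralateral losses were Insig1 without contralateral 2, contralateral 3 or sham 1 (0.0958 to 0.159), and Fdps without contralateral 1, contralateral 2, contralateral 3, sham 1, sham 2 or sham 3 (0.0701 to 0.253). Tested directly, 2 of 23 members, Fdft1 and Nsdhl, were lower in ipsilateral than in contralateral cortex. Their ipsilateral values against sham were -0.57 and -0.73 on the log2 scale, with adjusted p values of 4.56e-04 and 6.15e-04. Between the hemispheres, Fdft1 and Nsdhl lost their calls in some fits: Fdft1 without contralateral 1, contralateral 3, ipsilateral 1 or ipsilateral 2 (0.0792 to 0.117), and Nsdhl without contralateral 1, contralateral 2, contralateral 3, ipsilateral 1 or ipsilateral 2 (0.0769 to 0.189). None of the 15 promoters of the list in the table held the sterol element TCACNCCAC (both strands, chosen after values were seen), against 1.11% of all promoters of tested genes. At so low a share 15 promoters are too few for its absence to be read as a result. The number of falls was 6 without ipsilateral 1 and 7 without ipsilateral 2.

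**Figure D4:**
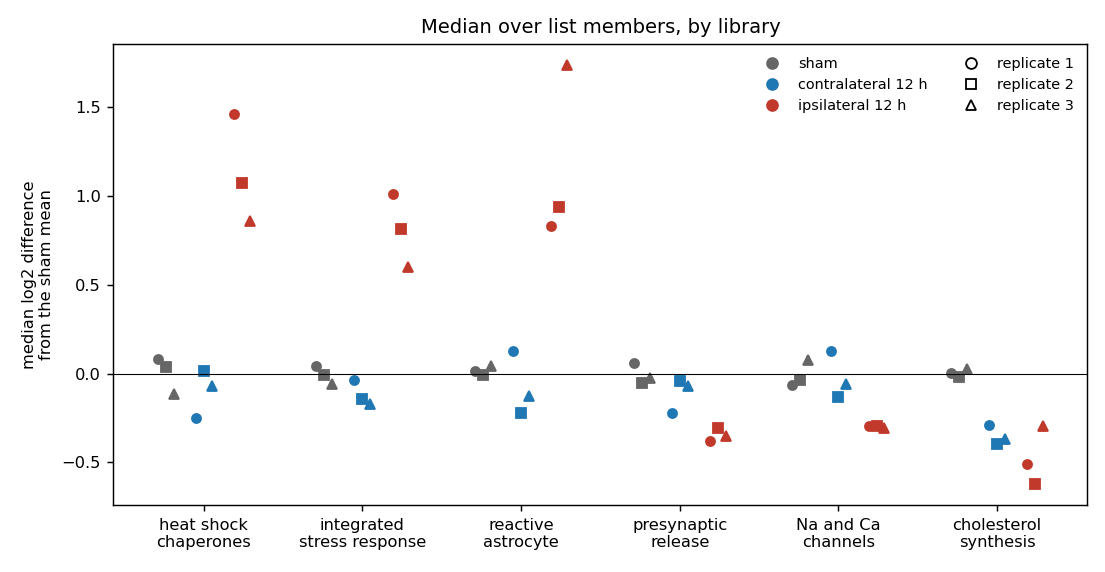
Median log2 difference from the sham mean over the members of 6 gene lists (vertical axis), 1 point per sham (grey), contralateral 12 h (blue) and ipsilateral 12 h (red) library, with circles, squares and triangles for replicates 1, 2 and 3. Ipsilateral libraries lie above all others for chaperones, stress response and reactive astrocyte genes and below them for presynaptic and channel genes, while for cholesterol synthesis contralateral libraries also lie below sham.

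Immediate early transcription factors, which neurons switch on within minutes of activity, gave 3 rises and 4 falls among 24. Atf3, a stress-induced member, read 1.23, 0.865 and 0.7 CPM in sham and 10.8, 4.71 and 17.7 CPM in stroke cortex (log2 3.56, SE 0.49, adjusted p = 1.21e-04), and Jun read 23.5, 21 and 20.3 CPM and 73.8, 39.2 and 70.2 CPM (log2 1.5, SE 0.27, adjusted p = 9.49e-04). Klf6 rose too (log2 0.57, adjusted p = 0.0164). Nr4a1, an orphan nuclear receptor, fell from 60.7, 34.6 and 44.1 CPM to 14.4, 14.1 and 33.3 CPM (log2 -1.17, adjusted p = 0.0238), with its relatives Nr4a2 (log2 -0.98, adjusted p = 0.0423) and Nr4a3 (log2 -1.01, adjusted p = 0.0402) and with Fosl2 (log2 -0.59, adjusted p = 0.0209). The falls numbered 0 without ipsilateral 1, sham 1 or sham 3 and 1 without ipsilateral 2. Losses were Klf6 without ipsilateral 1, ipsilateral 3, sham 1 or sham 3 (0.0501 to 0.109) and Fosl2 without ipsilateral 1, ipsilateral 2, sham 1 or sham 3 (0.0682 to 0.131). Nr4a1 was lost without ipsilateral 1, ipsilateral 2, sham 1 or sham 3 (0.0536 to 0.135), Nr4a2 was lost without ipsilateral 1, ipsilateral 3, sham 1, sham 2 or sham 3 (0.0585 to 0.177), and Nr4a3 was lost without ipsilateral 1, ipsilateral 2, ipsilateral 3, sham 1 or sham 3 (0.0826 to 0.146). With the day of surgery as a block 4 rose and 3 fell, and Nr4a2 (0.0518) did not pass. With no filter Nr4a2 (0.0581) and Nr4a3 (0.0566) did not pass and 2 fell, and fitted to the 6 libraries alone Nr4a1 (0.196) did not. Fos read 47.5, 25.8 and 28.4 CPM in sham and 11.5, 8.68 and 32.8 CPM in stroke cortex, overlapping because replicate 3 stayed at the sham level (log2 -0.94, adjusted p = 0.291).

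For activity genes the contralateral hemisphere is given as well. Arc, which removes AMPA receptors from synapses, read 273, 190.2 and 236 CPM in sham, 445, 287 and 423 CPM in ipsilateral and 47.3, 59.7 and 34.5 CPM in contralateral cortex. Ipsilateral animals were all above sham, but the difference did not pass (log2 0.73, adjusted p = 0.204), while contralateral cortex fell (log2 -2.3, adjusted p = 0.00896) and the 2 hemispheres differed at an adjusted p of 3.63e-05. Junb read 72.9, 44.8 and 40.6 CPM in sham, 26.3, 21.5 and 45.4 CPM in ipsilateral and 17.8, 17 and 12.9 CPM in contralateral cortex, where it fell (log2 -1.73, adjusted p = 0.0339). Dusp1, a phosphatase that ends MAP kinase signals, read 37.8 ± 10.8 CPM in sham, 18.8 ± 5.25 CPM in ipsilateral and 11.9 ± 2.45 CPM in contralateral cortex (mean ± SD, n = 3), and fell against sham in both ipsilateral (log2 -1.01, adjusted p = 0.0176; lost without ipsilateral 1, ipsilateral 2 or sham 1 (0.0662 to 0.111)) and contralateral cortex (log2 -1.67, adjusted p = 0.00817). When the 6 libraries were fitted alone, Dusp1 (0.0673) did not pass in ipsilateral cortex. Contralateral losses were Arc without contralateral 3 (0.0735) or sham 1 (0.0555) and Dusp1 without contralateral 3 (0.0688) or sham 1 (0.0592). The contralateral fall of Junb was also lost: Junb without contralateral 1, contralateral 2, contralateral 3, sham 1, sham 2 or sham 3 (0.055 to 0.271). Over the 24 factors, 8 were higher in ipsilateral than in contralateral cortex and none lower, and the contralateral list median against sham was -0.796. Feedback genes of ERK signalling gave 5 rises, among them Dusp2 (log2 2.03, adjusted p = 2.74e-04), Dusp16 (log2 1.16, adjusted p = 4.34e-05), Dusp14 (log2 0.92, adjusted p = 0.00479) and Spry2 (log2 0.61, adjusted p = 0.00536), and 1 fall (Dusp1) among 14. In contralateral cortex 4 of these 14 fell against sham, beside 0.144% of all tested genes, and none rose (list median -0.271). Between the hemispheres 9 of the 14 were higher in ipsilateral cortex, beside 7.94% of all tested genes, and none was lower. Of 18 secreted and synaptic activity genes, Nptx2, a pentraxin that clusters AMPA receptors (log2 1.22, adjusted p = 0.00556), and Ptgs2, cyclooxygenase 2 (log2 0.82, adjusted p = 0.0123; lost without ipsilateral 3 (0.0896) or sham 2 (0.0605)), rose and the hormone convertase Pcsk1 fell (log2 -0.76, adjusted p = 0.00136).

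**Figure D5:**
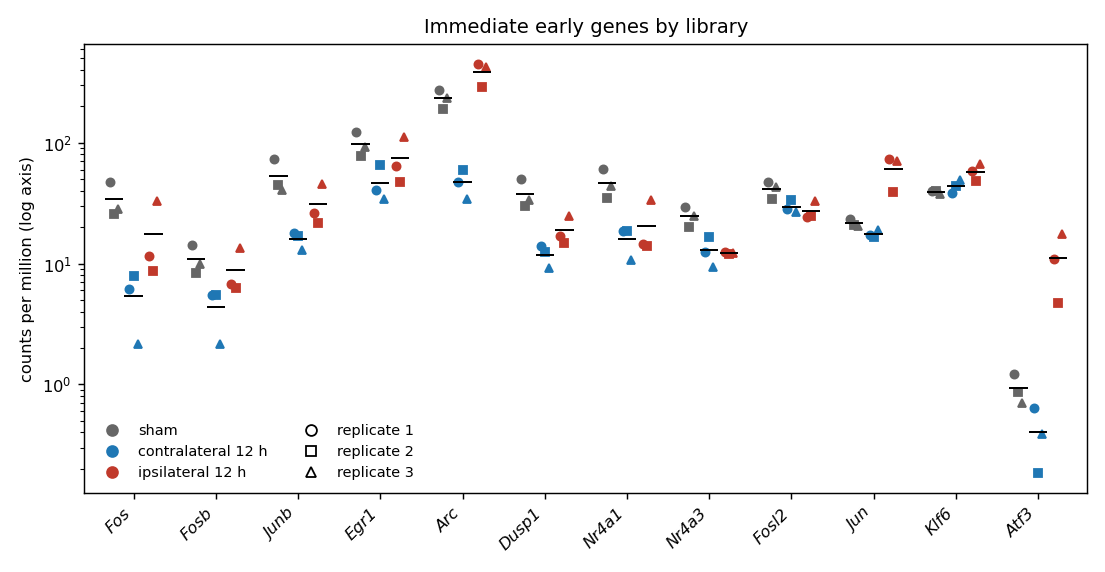
CPM (log axis) of 12 immediate early genes in each sham (grey), contralateral 12 h (blue) and ipsilateral 12 h (red) library, with circles, squares and triangles for replicates 1, 2 and 3 and black bars for group means. Contralateral libraries are lowest for Fos, Junb and Arc, and ipsilateral libraries stand alone above both other groups for Jun and Atf3.

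Clock genes gave 4 rises and 1 fall among 19. Arntl, the core activator BMAL1, read 19.6, 23.1 and 21.1 CPM in sham and 52.2, 45 and 34.7 CPM in stroke cortex (log2 1.05, SE 0.15, adjusted p = 5.75e-05). Cry1, a repressor of the clock (log2 0.71, adjusted p = 0.0117), and Nfil3 (log2 0.86, adjusted p = 0.0238) rose, and the output factor Dbp fell (log2 -0.61, adjusted p = 0.00825). In contralateral cortex at 12 h no clock gene passed against sham, with a list median of -0.0646. Between the hemispheres 5 clock genes were higher and 2 lower in ipsilateral cortex. The time of day of dissection was not stated, and the part of clock phase in these differences was not tested. The rises numbered 1 without ipsilateral 1 or sham 3 and 2 without ipsilateral 3 or sham 2, and losses were Cry1 without ipsilateral 1 (0.0723) or sham 3 (0.0584), Nfil3 without ipsilateral 1, ipsilateral 3, sham 2 or sham 3 (0.0627 to 0.131) and Dbp without ipsilateral 1 (0.052). Of 14 glucocorticoid-responsive genes the receptor Nr3c1 rose (log2 0.68, adjusted p = 0.00207) and the zinc finger factor Zbtb16 fell (log2 -0.63, adjusted p = 0.0169). Zbtb16 was lost without ipsilateral 1, ipsilateral 3, sham 2 or sham 3 (0.0552 to 0.0916), and with the day of surgery as a block 2 members fell. These counts of 1 stand beside the 6.58% of all tested genes that rose and the 3.72% that fell. The glucocorticoid list median against sham was -0.288 in ipsilateral and -0.373 in contralateral cortex, where no member passed. Between the hemispheres 2 members of that list were higher and 1 lower in ipsilateral cortex.

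Few members of the metabolic lists passed. A count of 1 in a list of this paragraph is near the share of all tested genes that rose (6.58%) or fell (3.72%). Of 20 hypoxia and glycolysis genes Vegfa, the vascular growth factor, rose (log2 0.63, adjusted p = 0.0111; lost without sham 1 (0.0685)), and Ndrg1 (log2 -0.84, adjusted p = 6.7e-05), the glucose transporter Slc2a1 (log2 -0.61, adjusted p = 0.0117) and the glycolytic enzyme Pfkp (log2 -0.28, adjusted p = 0.0478) fell. Under the surgery-day block 5 of this list fell, and the single-library losses were Slc2a1 without ipsilateral 1 (0.0872) or sham 3 (0.11) and Pfkp without ipsilateral 1, ipsilateral 3, sham 1, sham 2 or sham 3 (0.0657 to 0.213). In contralateral cortex at 12 h 2 of these 20 genes fell against sham, beside 0.144% of all tested genes, and none rose. Tested directly, 2 of the 20 were higher and none lower in ipsilateral than in contralateral cortex. Nuclear genes of oxidative phosphorylation fell in 2 of 25 members, Ndufa4 (log2 -0.5, adjusted p = 0.00377) and Cox6c (log2 -0.35, adjusted p = 0.0433; lost without ipsilateral 1, ipsilateral 2, ipsilateral 3, sham 1, sham 2 or sham 3 (0.0538 to 0.188)), and in 4 with the block. With no filter Pfkp (0.0749) and Cox6c (0.0509) did not pass, nor did Pfkp (0.0605) and Cox6c (0.0549) with DESeq2's size factors. The oxidative phosphorylation median was -0.225. None of 27 ribosomal protein genes passed in edgeR (1 at an unadjusted p under 0.05; median 0.0283; Rpl18 log2 0.44, adjusted p = 0.0798), and none of 24 proteasome genes did (1 unadjusted; median 0.0878; Psmb5 log2 -0.3, adjusted p = 0.182). Tgfb1 (log2 1.17, adjusted p = 0.0399; lost without ipsilateral 1, ipsilateral 3, sham 1, sham 2 or sham 3 (0.0724 to 0.146)) and Inhbb (log2 0.69, adjusted p = 0.0248; lost without ipsilateral 1, ipsilateral 3, sham 1 or sham 2 (0.08 to 0.0997)) rose among 20 matricellular and TGF-beta genes, Ptges3 among 18 prostaglandin and leukotriene genes (log2 0.47, adjusted p = 0.0351; lost without ipsilateral 1, ipsilateral 2, sham 1, sham 2 or sham 3 (0.0639 to 0.212)), and Apln fell among 19 VEGF and angiopoietin genes (log2 -0.65, adjusted p = 0.0147; lost without ipsilateral 1, sham 2 or sham 3 (0.0609 to 0.12)).

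Markers of other cell types and of neighbouring tissue were read as well, and a count of 1 in such a list is near the share of all tested genes that rose (6.58%) or fell (3.72%). Of 15 oligodendrocyte markers Mog fell (log2 -0.64, adjusted p = 0.0366; lost without ipsilateral 2, ipsilateral 3, sham 1, sham 2 or sham 3 (0.0613 to 0.145)), 2 fell with the block, and the sums were 1428 to 1775 CPM in sham and 1153 to 1255 CPM in stroke cortex. Of 14 endothelial markers the tight junction gene Cldn5 rose (log2 0.96, adjusted p = 0.0277; lost without ipsilateral 1, ipsilateral 2, sham 1 or sham 2 (0.0766 to 0.131)) and Slc2a1 fell, with sums of 390.5 to 509.5 CPM and 419.8 to 459 CPM. Of 15 mural cell and fibroblast markers Tagln fell (log2 -0.81, adjusted p = 0.0189; lost without ipsilateral 1, ipsilateral 2, sham 1 or sham 2 (0.0592 to 0.0634)). None of 11 oligodendrocyte precursor markers passed in edgeR (4 at an unadjusted p under 0.05). Neither did any of 12 striatal markers (0 unadjusted), with sums of 394 to 577 CPM in sham and 333 to 471 CPM in stroke cortex, nor any of 12 choroid plexus markers (1 unadjusted), with sums of 168 to 199 CPM in sham, 222 to 359.7 CPM in contralateral and 128 to 144 CPM in ipsilateral cortex. The choroid plexus list had a median log2 fold change of 0.436 against this lower sum. Most of the sum was Enpp2, at 168 ± 19.1 CPM in sham and 119 ± 10.2 CPM in ipsilateral cortex (mean ± SD, n = 3; log2 -0.5, adjusted p = 0.49). Kcne2 (log2 2.6, adjusted p = 0.189) and Slc4a5 (log2 2.11, adjusted p = 0.349) had the highest fold changes. The part of dissection differences in the results was not tested.

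Contralateral cortex at 12 h was compared to ask how much of the ipsilateral difference was shared by the other hemisphere. Against sham 17 genes rose there (0.094% of those tested) and 26 fell (0.144%), with 1348 genes at an unadjusted p under 0.05, against 4506 for ipsilateral cortex. Glp2r, Slco1a4 and Ankrd34c were the largest contralateral rises by the same conditions, at 1.12, 1.01 and 0.98, and in ipsilateral cortex they read 0.31, 0.5 and 0.17 without passing. Without contralateral replicate 1, 2 or 3, 14, 8 and 6 genes rose and 30, 14 and 8 fell. Without sham replicate 1, 2 or 3, 1, 5 and 8 rose and 7, 16 and 13 fell. Calls were lost for Glp2r without contralateral 3, sham 1 or sham 2 (0.154 to 0.346). They were lost also for Slco1a4 without contralateral 1, sham 1 or sham 2 (0.0879 to 0.159), and Ankrd34c without contralateral 2, contralateral 3, sham 1, sham 2 or sham 3 (0.0506 to 0.123). Tested directly, 1437 genes were higher (7.94%) and 777 lower (4.3%) in ipsilateral than in contralateral cortex. Without ipsilateral replicate 1, 2 or 3, 702, 1587 and 1023 were higher and 187, 819 and 412 lower. Without contralateral replicate 1, 2 or 3 the numbers were 906, 953 and 998 and 456, 495 and 461. With the day of surgery as a block 1544 genes were higher and 953 lower in ipsilateral than in contralateral cortex. With that block 21 genes rose and 32 fell in contralateral cortex against sham. The overlaps that follow come from the fit without a block. Of the 1191 genes that rose against sham 892 (74.9%) were also higher than in contralateral cortex and none was lower. Of the 673 that fell 344 (51.1%) were also lower and 1, Arl4d, was higher. Both tests use the same ipsilateral libraries. Arl4d, a small GTPase, read 24.2, 16.4 and 13.8 CPM in sham, 5.74, 6.97 and 6.18 CPM in contralateral and 10.8, 9.44 and 15.6 CPM in ipsilateral cortex (log2 -0.6, adjusted p = 0.0441 against sham; lost without ipsilateral 1, ipsilateral 2, sham 1 or sham 2 (0.0623 to 0.351)). Against sham it did not pass in the 6 libraries alone (0.189), with a block in addition (0.272) or with DESeq2's size factors (0.0503).

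Against ipsilateral cortex at 6 h, 13 genes were higher at 12 h (0.0719%) and 51 lower (0.282%). Of the 1191 genes above sham at 12 h, 12 were higher than at 6 h and 2 lower, and of the 673 below sham 14 were lower than at 6 h. The test against sham and the test against 6 h share the 12 h libraries, so these overlaps are not independent. Fos fell from 123 ± 44.4 CPM at 6 h to 17.7 ± 13.2 CPM at 12 h (mean ± SD, n = 3; log2 -2.8, adjusted p = 0.0382). Ntsr1 fell from 10.4 ± 1.11 CPM to 4.92 ± 1.04 CPM (log2 -1.08, adjusted p = 0.0439). Adcy7, an adenylate cyclase of immune cells, rose from 15.2 ± 1.65 CPM to 32.6 ± 5.92 CPM (log2 1.1, adjusted p = 1.98e-04) against 9.77, 9.99 and 11.4 CPM in sham, and 38.5, 32.6 and 26.6 CPM in the single libraries at 12 h. Numb, an inhibitor of Notch signalling, rose from 43.8 ± 8.67 CPM to 86.2 ± 20.8 CPM (log2 0.98, adjusted p = 0.00711). The mitochondrial enzyme Shmt2 (log2 1.04, adjusted p = 0.00371), Fam129a (log2 0.85, adjusted p = 0.0399), Trib3 (log2 1.68, adjusted p = 0.0439) and Ccl12 (log2 2.3, adjusted p = 0.0443) were higher at 12 h as well. With the day of surgery as a block 27 genes were higher than at 6 h. Leaving out 1 library of either time moved the 13 rises to between 2 (without 12 h replicate 1 or 6 h replicate 1) and 40 (without 12 h replicate 3), and the 51 falls to between 5 (without 12 h replicate 1) and 86 (without 12 h replicate 3). The other fits gave 3 rises and 7 falls without 12 h replicate 2, 7 falls without 6 h replicate 1, 7 and 11 without 6 h replicate 2, and 9 and 57 without 6 h replicate 3. Adcy7 passed in each of these fits. The others each failed in some. Falls were lost for Fos without 12 h 1, 12 h 2, 6 h 1 or 6 h 2 (0.104 to 0.228), and for Ntsr1 without 12 h 1, 12 h 2, 12 h 3, 6 h 1, 6 h 2 or 6 h 3 (0.0725 to 0.212). Rises were lost for Numb without 12 h 1 (0.14) or 6 h 1 (0.0632) and Shmt2 without 12 h 1, 12 h 2 or 6 h 1 (0.0585 to 0.0734), for Fam129a without 12 h 1, 12 h 2, 6 h 1, 6 h 2 or 6 h 3 (0.0912 to 0.232) and Trib3 without 12 h 1, 12 h 2, 6 h 1, 6 h 2 or 6 h 3 (0.0585 to 0.301), and for Ccl12 without 12 h 1, 12 h 2, 12 h 3, 6 h 1, 6 h 2 or 6 h 3 (0.0585 to 0.261). With the block Ccl12 (0.055) did not pass.

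Against ipsilateral cortex at 24 h, 34 genes were higher (0.188%) and 29 lower (0.16%) at the later time. Of the genes above sham at 12 h, 10 were higher and 13 lower at 24 h, and of those below sham 1 was higher. These overlaps are not independent either, since the 12 h libraries enter both tests. Stat3 rose from 68.8 ± 9.35 CPM at 12 h to 115 ± 24.2 CPM at 24 h (log2 0.74, adjusted p = 0.0198) and Serpina3n from 28.1 ± 8.91 CPM to 138 ± 96.3 CPM (log2 2.3, adjusted p = 0.0207). The lipid droplet gene Plin2 (log2 1.6, adjusted p = 0.0403), the antibody receptor Fcgr1 (log2 1.17, adjusted p = 0.043) and the inflammasome adaptor Pycard (log2 0.84, adjusted p = 0.0478) were higher at 24 h. Numb (log2 -0.75, adjusted p = 0.0478), the kinase Nuak1 (log2 -0.87, adjusted p = 0.043) and the factors Mycn (log2 -1.07, adjusted p = 0.0418) and Insm1 (log2 -0.9, adjusted p = 0.0369) were lower. Hspa1a read 404 ± 55.6, 181 ± 87 and 135 ± 49.965 CPM at 6, 12 and 24 h, Gfap 128 ± 30.7, 221 ± 31.8 and 408 ± 185 CPM, and Hmox1 20.6 ± 3.9, 35.1 ± 15.2 and 38.8 ± 14.4 CPM. None of these 3 genes passed in either test of neighbouring times (adjusted p = 0.119 and 0.544 for Hspa1a, 0.235 and 0.137 for Gfap, 0.265 and 0.861 for Hmox1). The counts rested on single libraries: without 12 h replicate 1 or 24 h replicate 1 no gene passed in either direction in edgeR, without 12 h replicate 2 there were 5 rises and 25 falls, without 12 h replicate 3 249 and 71, without 24 h replicate 2 12 and 13, and without 24 h replicate 3 403 and 137. Beside the fits in which no gene passed, rises were lost for Stat3 without 12 h 2 (0.0932) or 24 h 2 (0.052), Serpina3n without 12 h 2 (0.0799) and Plin2 without 12 h 2 (0.136). They were lost also for Fcgr1 without 12 h 2 (0.153) or 24 h 2 (0.0806) and Pycard without 12 h 2, 12 h 3 or 24 h 2 (0.0547 to 0.112). Falls were lost for Numb without 12 h 3 (0.0524), Nuak1 without 12 h 2 (0.0608) or 24 h 2 (0.0563), Mycn without 12 h 3 (0.0766) or 24 h 2 (0.0543) and Insm1 without 12 h 3 (0.0515) or 24 h 2 (0.0524). Under the surgery-day block there were 26 rises and 33 falls, and Plin2 (0.0528) and Pycard (0.0535) did not pass.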

How the data were processed

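Total RNA of 27 cortex samples in 9 groups of 3 was depleted of ribosomal RNA and sequenced, per the labels' protocols. The deposited values are raw counts per gene, which the authors made with STAR 2.5.0a and featureCounts 1.4.3-p1 on mm10, per the submitters' processing notes; their annotation and strand setting were not stated (not given in the sources used here). Of 22340 rows, 588 held no count and 4253 in all were removed by edgeR's filter (minimum count 10, minimum total 15), with 0.0116% of counts. The remaining 18087 genes of all 27 libraries were fitted with edgeR 4.0.16 in R 4.3.3 (TMM scaling, robust quasi-likelihood, 1 term per group), and p-values were adjusted by Benjamini-Hochberg over all genes at a threshold of 0.05. CPM use the scaled library sizes. The code was tested on simulated data. Alternatives were another scaling, other filters, abundant RNAs left out, only the 6 libraries, DESeq2 1.42.0, each library left out, and a block for the day of surgery.

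The series' design text ties replicate numbers to days of surgery, so they pair the samples; deviations from the group means correlated at 0.12, 0.00794 and 0.143 between ipsilateral and sham samples of the same number and at -0.144 to 0.0419 between different numbers. Genes were named by rule: the 14 largest rises and 10 largest falls, up to 4 members of each list by smallest p, and some others named for their role; results of a few genes that met the rule are not reported here. The gene lists, and the genes described, were chosen with earlier results of these data known. Gene positions come from GENCODE M21 (mm10).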

Additional observations from a re-analysis of the deposited data

Results flagged for a closer look

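Ipsilateral cortex at 12 h differed from ipsilateral cortex at 6 h in 64 genes and from ipsilateral cortex at 24 h in 63 genes, by the test of the difference itself in edgeR. Among genes named here, Fos differed between 12 h and 6 h by -2.80 on the log2 scale and Ntsr1 by -1.08. Groups of 3 were too small to look for single outlying samples.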

How the results depend on the processing

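No gene named by rule changed sign under any alternative. Of 178 such genes 155 passed the test, 68 of them in all 14 alternatives and 2, Cxcl1 and Cfd, in each of the fewer that tested them, and 85 failed in at least 1. Which direction held more calls did change. At 24 h against 12 h, 34 rises and 29 falls became 26 and 33 with the replicate block, 5 and 25 without 12 h replicate 2 and 12 and 13 without 24 h replicate 2. Leukocyte adhesion genes went from 3 rises and 1 fall to 0 and 2 without ipsilateral replicate 3 and 0 and 1 without sham replicate 2, and glutamate recycling genes from 2 and 4 to 1 and 0 without ipsilateral replicate 1. Immediate early factors went from 3 and 4 to 4 and 3 with the replicate block, to 5 and 3 in the 6 libraries alone, to 3 and 2 with no filter, and to more rises than falls without sham replicate 1 or 3 or ipsilateral replicate 1 or 2. Secreted and synaptic activity genes went from 2 and 1 to 2 and 4 in the 6 libraries alone. Under the replicate block 3 genes named by rule lost their calls, among them Plaur and Plin2 (both 0.0538), and no other gene named by rule did. Genes that rose and fell against sham numbered 1278 and 854 with the replicate block, 1265 and 584 with DESeq2's size factors, 1101 and 565 with no filter, and 1498 and 795 with DESeq2's test. Fitted to the 6 libraries alone they numbered 1729 and 1305, and with the replicate block 2200 and 1890, of which 53.8% were rises against 63.9% in the main analysis. Without ipsilateral replicate 1, 77.2% were rises. The median of all genes moved by at most 0.0157 on the log2 scale. With the replicate block 27 genes were higher at 12 h than at 6 h. DESeq2 called 56 rises and 89 falls for contralateral cortex against sham, 94 and 143 for 12 h against 6 h, and 224 and 144 for 24 h against 12 h.

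With 1 library left out, rises ranged from 587 to 1333 and falls from 173 to 627 for ipsilateral cortex against sham, from 1 to 14 and from 7 to 30 for contralateral cortex against sham, from 702 to 1587 and from 187 to 819 between the hemispheres, from 2 to 40 and from 5 to 86 for 12 h against 6 h, and from 0 to 403 and from 0 to 137 for 24 h against 12 h. The cause of these moves was not tested. The count filter removed 4253 genes as too low to test. The intervals printed for genes of few counts cover counting error and not the spread between animals.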

Other observations

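The genes given here were chosen after their values were seen and stand for no group. Gpr84, a receptor for medium-chain fatty acids, read 0.0926, 0.182 and 0.175 CPM in sham and 3.92, 2.7 and 6.12 CPM in ipsilateral cortex (log2 4.81, adjusted p = 2.94e-07). Lgals3, the lectin galectin 3, rose by 4.53 (adjusted p = 0.000139), and Msr1, a scavenger receptor, by 3.87 (adjusted p = 0.000491) on the log2 scale. All ipsilateral animals were above sham for these genes. Rest, a repressor of neuronal genes, rose from 5.35, 4.92 and 4.78 CPM to 13.8, 9 and 12.4 CPM (log2 1.23, adjusted p = 9.06e-06).

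Among genes that fell, chosen in the same way, the tubulin gene Tuba1a fell by 0.66 (adjusted p = 0.00149), the microtubule regulators Stmn2 by 0.62 (adjusted p = 0.000938) and Stmn3 by 0.73 (adjusted p = 0.00156), and the sodium-calcium exchanger Slc8a2 by 0.66 (adjusted p = 0.000274) on the log2 scale. Slc8a2 read 341, 343 and 368 CPM in sham and 207, 230 and 226 CPM in ipsilateral cortex, without overlap.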
